A study of Rattus norvegicus with 20 samples.

Results

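The 6 transcripts described here, Nefl, Thy1, Syt17, Cyfip2, Mpped1 and App, are those of the 750 endogenous genes on the panel that were picked for neuronal or synaptic roles. They were picked by name with their hemisphere values in these data known, so differences between the hemispheres are given for them as a description. The animals were 10 female rats given a controlled cortical impact, in which a piston strikes the exposed cortex to model traumatic brain injury. The injured side of each brain (ipsilateral) and the other side (contralateral) gave 1 RNA library each, 20 in all. Both groups therefore come from injured animals, and no uninjured brain is among them. L-myc immortalised human neural stem cells had been given through the nose to some animals, and vehicle to the rest. Treatment is not labelled per animal, so each group mixes both. Strain, age and time after injury are not given in the sources used here.

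Neurons depend on a cytoskeleton that fills long axons, on machinery that releases transmitter at synapses, and on actin that shapes dendritic spines. Nefl encodes the light chain of neurofilaments, the intermediate filaments of axons, which is released into fluid when axons are damaged. Thy1 is a lipid-anchored surface glycoprotein abundant on neurons, and it is also carried by fibroblasts and, in some species, by T cells. Syt17 is an atypical member of the synaptotagmins, a family of membrane traffic proteins with C2 domains. Cyfip2 is a subunit of the WAVE complex, which drives branched actin assembly and acts at synapses. Mpped1 is a metallophosphoesterase domain protein expressed in brain. App is the amyloid precursor protein, a membrane protein that secretases cut to release amyloid beta, and it is made by neurons and by many other cells.

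The proximal promoters of Cyfip2, Mpped1 and App are shown because the first and second of these had the lowest hemisphere differences of the 6 and App the smallest. Each is the 250 bases before the annotated start of the rat gene, from RefSeq on build GRCr8, 5′ to 3′ on the strand of the gene. The window of Cyfip2 is chr10:31242441-31242690 on the minus strand, that of Mpped1 chr7:116824504-116824753 on the plus strand and that of App chr11:37722839-37723088 on the minus strand. Capitals mark matches to the motifs searched.
Cyfip2: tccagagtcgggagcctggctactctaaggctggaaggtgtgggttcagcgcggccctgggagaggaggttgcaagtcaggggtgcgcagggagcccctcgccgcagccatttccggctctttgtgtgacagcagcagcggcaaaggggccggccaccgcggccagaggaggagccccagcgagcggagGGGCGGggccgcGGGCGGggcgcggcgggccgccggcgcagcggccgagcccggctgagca
Mpped1: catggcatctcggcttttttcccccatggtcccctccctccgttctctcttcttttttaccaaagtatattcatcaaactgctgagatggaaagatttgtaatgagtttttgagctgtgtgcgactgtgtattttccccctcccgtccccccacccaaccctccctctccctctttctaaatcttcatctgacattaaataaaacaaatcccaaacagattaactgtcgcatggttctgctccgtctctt
App: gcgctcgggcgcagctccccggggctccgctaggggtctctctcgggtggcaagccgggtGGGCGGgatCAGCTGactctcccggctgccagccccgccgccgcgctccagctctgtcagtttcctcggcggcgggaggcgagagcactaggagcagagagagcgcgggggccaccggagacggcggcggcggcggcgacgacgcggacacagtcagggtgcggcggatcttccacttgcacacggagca
The motifs were the GC box GGGCGG, the EGR1 motif GCGGGGGCG, the cyclic AMP response element TGACGTCA, the TATA box TATAAA and the E-box CAGCTG, on both strands. The GC box had 2 matches for Cyfip2, 1 for App and 0 for Mpped1, and 30.5% of 33360 rat promoter windows of the same length held it. The E-box had 1 match, in App, and was in 12% of windows. The EGR1 motif (2.46% of windows), the cyclic AMP response element (1.59%) and the TATA box (12.9%) had 0 matches in the 3 windows, and no matches overlapped. G and C made up 74.0% of the bases for Cyfip2, 45.2% for Mpped1 and 73.6% for App, against a median of 51.6% over all windows. Nefl, Thy1 and Syt17 are named only.

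RNA was measured on the NanoString nCounter, which counts single barcoded probes after they bind their target. The accession given for a probe matched a rat RefSeq transcript for 0 of 770 probes, and those of App, Nefl and Thy1 are mouse transcripts. Probes made for another species may bind rat RNA unevenly, so levels are compared between hemispheres only, not between genes. Totals over the 770 probes ranged from 38015 to 150613 ipsilaterally and from 34454 to 319964 contralaterally. Counts were divided by a factor per library from 17 housekeeping genes, and these scaled counts are the levels given below. Testing was limited to the 193 genes whose raw counts averaged 20 or more, and all 6 transcripts are among them. A gene can pass this minimum through 1 hemisphere alone. A gene is said to be called where the edgeR quasi-likelihood test gave an adjusted p under 0.05. The column names place ipsilateral and contralateral libraries in separate sets, and the positive controls had geometric means of 543.9 to 715.1 counts ipsilaterally and 341.8 to 540.4 contralaterally, without overlap. Set and hemisphere cannot be told apart.

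All 6 transcripts had a negative log2 fold change of ipsilateral over contralateral, and Mpped1, Cyfip2, Syt17 and Nefl were called lower. Of all tested genes, 10.4% were called lower and 47.2% higher, but nothing is read from this count, since the transcripts were picked with this comparison known. The median log2 fold change was -0.43 for the 6 transcripts and 0.30 for all tested genes. Ordered from the lowest, Mpped1 stood at place 3 of the 193, Cyfip2 at 4, Thy1 at 8, Syt17 at 9, Nefl at 18 and App at 38. In bulk tissue, fewer cells of a type and less RNA per cell cannot be told apart.

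**Figure D1:**
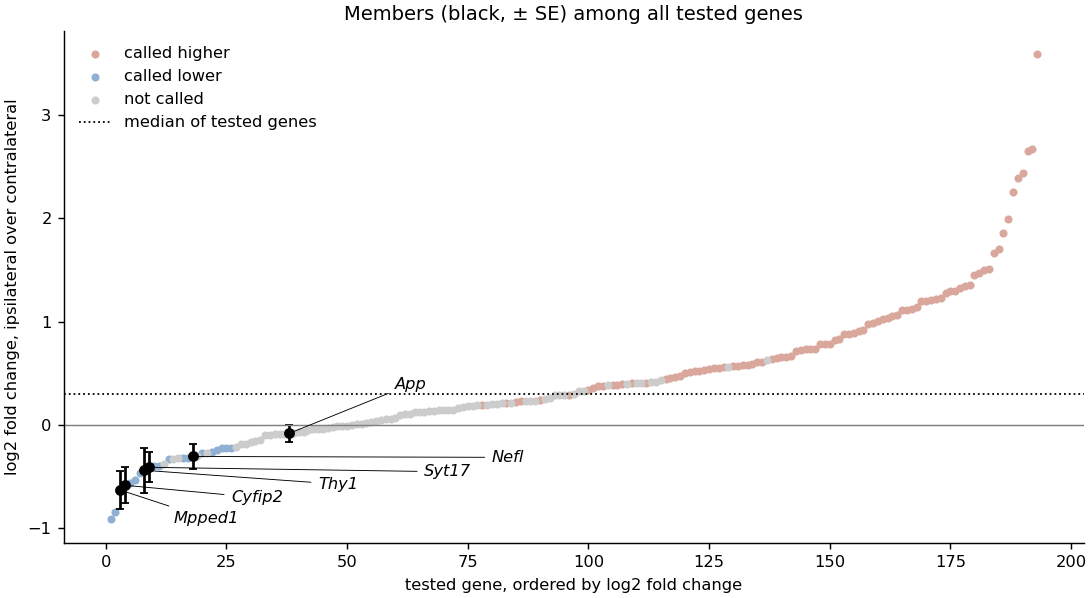
Log2 fold change of ipsilateral over contralateral for the 193 tested genes, ordered from lowest to highest along the horizontal axis. The 6 transcripts are in black with their SE, colours mark the edgeR calls and the dotted line is the median of 0.30; all 6 lie below 0 and below the median.

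Nefl, of the axonal cytoskeleton, had 379 scaled counts in its lowest ipsilateral library (animal 6), a median of 570.5 and 863 in its highest (animal 5). Contralaterally the lowest was 542 (animal 2), the median 713 and the highest 887 (animal 3). The groups overlapped, with 5 ipsilateral libraries below the lowest contralateral one. Means were 576 ± 158 ipsilaterally and 698.5 ± 119.7 contralaterally (SD, n = 10 each), a log2 fold change of -0.31 ± 0.12 (SE). Nefl was lower in 8 of 10 animals and higher in animals 2 and 5. Its call was lost when any of animals 3, 4, 6, 7, 8, 11 or 12 was left out.

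Thy1, of the neuronal surface, was the scarcest of the 6 in raw counts, with 11 to 72 ipsilaterally and 17 to 172 contralaterally. The highest count of a negative control probe, which has no target, was 18, and 2 ipsilateral libraries and 1 contralateral library had no more Thy1 than that. Scaled counts ran from 17.7 (animal 7) through a median of 23.4 to 52.6 (animal 10) ipsilaterally. Contralaterally they ran from 16.9 (animal 11) through a median of 40.3 to 51.8 (animal 6). The ranges overlapped almost wholly, though the ipsilateral libraries lay mostly in the lower part. The log2 fold change of -0.44 ± 0.22 (SE) was not called, with lower values in 7 of 10 animals. It was called without animal 3, at -0.56. Of markers of T cells, which carry Thy1 in some species, 9 of 11 were on the panel. The 1 tested, Cd3e, stood at -0.38 ± 0.39 (SE) and was not called. Of fibroblast markers, 3 of 4 on the panel were tested, and Col1a1, Col3a1 and Fn1 were all called higher. So were 47.2% of all tested genes, and a scarce marker can pass the minimum count through the injured side alone. The summed level of the 4 fibroblast markers was 196 to 2654 scaled counts ipsilaterally and 110 to 276 contralaterally. Their part in the Thy1 count was not tested.

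Syt17, the synaptotagmin, had its lowest ipsilateral value of 157 scaled counts in animal 6, a median of 318.5 and its highest of 422 in animal 3. Contralateral values lay between 340 (animal 4) and 492.8 (animal 2), with a median of 389. Of the ipsilateral libraries, 6 lay below all contralateral ones, and the other 4 overlapped them. Means were 314 ± 91 ipsilaterally and 404 ± 48 contralaterally (SD, n = 10 each), a log2 fold change of -0.41 ± 0.15 (SE), with lower values in 8 of 10 animals. Animals 4 and 5 were higher ipsilaterally. The call was lost without animal 2, without animal 7 or without animal 11.

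Cyfip2, the WAVE complex subunit, was lower in 9 of 10 animals, with animal 10 the exception. It had 1127 scaled counts in the lowest ipsilateral library (animal 6), a median of 1822 and 2889 in the highest (animal 10). Contralaterally the lowest was 2123 (animal 11), the median 2869 and the highest 3427 (animal 8). The ipsilateral values fell apart into 7 libraries of at most 1999, below every contralateral one, and 3 of at least 2780, in animals 3, 5 and 10, within the contralateral range. Means were 1927 ± 691 ipsilaterally and 2766 ± 407 contralaterally (SD, n = 10 each), a log2 fold change of -0.59 ± 0.17 (SE), or 0.666-fold. The call was kept whichever animal was left out.

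Mpped1, the metallophosphoesterase, had the lowest log2 fold change of the 6, at -0.63 ± 0.18 (SE), or 0.645-fold, and was also called whichever animal was left out. Scaled counts ran from 70.8 (animal 7) through a median of 159 to 253 (animal 5) ipsilaterally. Contralaterally they lay close together, from 175 (animal 11) through a median of 219 to 240.5 (animal 3). Here too 7 ipsilateral libraries were below all contralateral ones, while animal 5 exceeded them all. Means were 150.3 ± 65.6 ipsilaterally and 216 ± 21 contralaterally (SD, n = 10 each). Mpped1 was lower in 9 of 10 animals. In raw counts the lowest ipsilateral library, that of animal 8, had 23, the smallest raw count of Mpped1 in any library.

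App, the amyloid precursor, differed least. It had 4182 scaled counts in the lowest ipsilateral library (animal 6), a median of 5224 and 6683 in the highest (animal 5). The contralateral values spanned 5175 (animal 6) to 6004 (animal 3), with a median of 5602. The contralateral range lay wholly inside the ipsilateral one. The log2 fold change of -0.08 ± 0.08 (SE) was not called, although App was lower in 8 of 10 animals. Among all tested genes 11.9% were lower in at least 8 of 10 animals and 5.70% in at least 9.

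**Figure D2:**
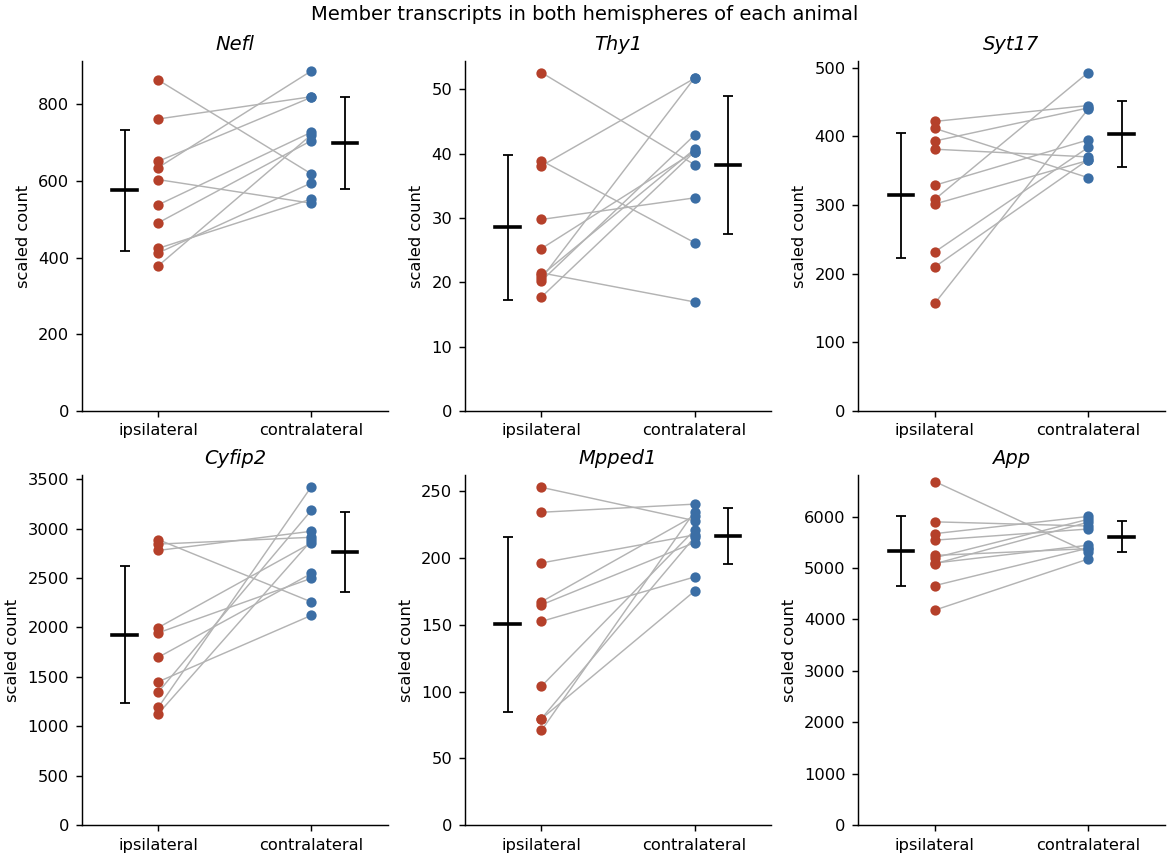
Scaled counts of each transcript in the ipsilateral (left, red) and contralateral (right, blue) library of the 10 animals, joined by a line for each animal, with the mean and SD of each group as black bars beside them. Cyfip2 and Mpped1 each have 7 ipsilateral libraries below every contralateral one, whereas the contralateral range of App lies inside its ipsilateral range.

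Differences between the hemispheres varied widely from animal to animal. The paired log2 difference (ipsilateral minus contralateral, of scaled count plus 1) of Mpped1 ran from -1.72 in animal 7 to 0.15 in animal 5, and that of Cyfip2 from -1.52 in animal 8 to 0.35 in animal 10. Syt17 ranged from -1.48 in animal 6 to 0.28 in animal 4, and App from -0.31 in animal 6 to 0.33 in animal 5. Animal 6 thus had the lowest difference for Nefl (-0.93), Thy1 (-1.29), Syt17 and App, but not for Cyfip2 or Mpped1. In animals 6, 7, 8 and 12 all 6 transcripts were lower ipsilaterally, whereas 41.5%, 24.4%, 25.9% and 31.1% of all tested genes were, in that order. In animal 5 only 2 of 6 were lower and in animal 10 only 3, against 21.2% and 31.6% of tested genes. In animal 3 the count was 5 of 6, but there 67.9% of tested genes were lower and the median difference of the 6 was -0.06. The library factor that divides the counts was unequal within animals. It was 1.13 ipsilaterally and 4.27 contralaterally in animal 7, and 0.289 and 2.13 in animal 8. In animal 6 it was 1.02 and 0.715, and in animal 10 it was 1.37 and 0.444. The part of this inequality in the paired differences was not tested.

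**Figure D3:**
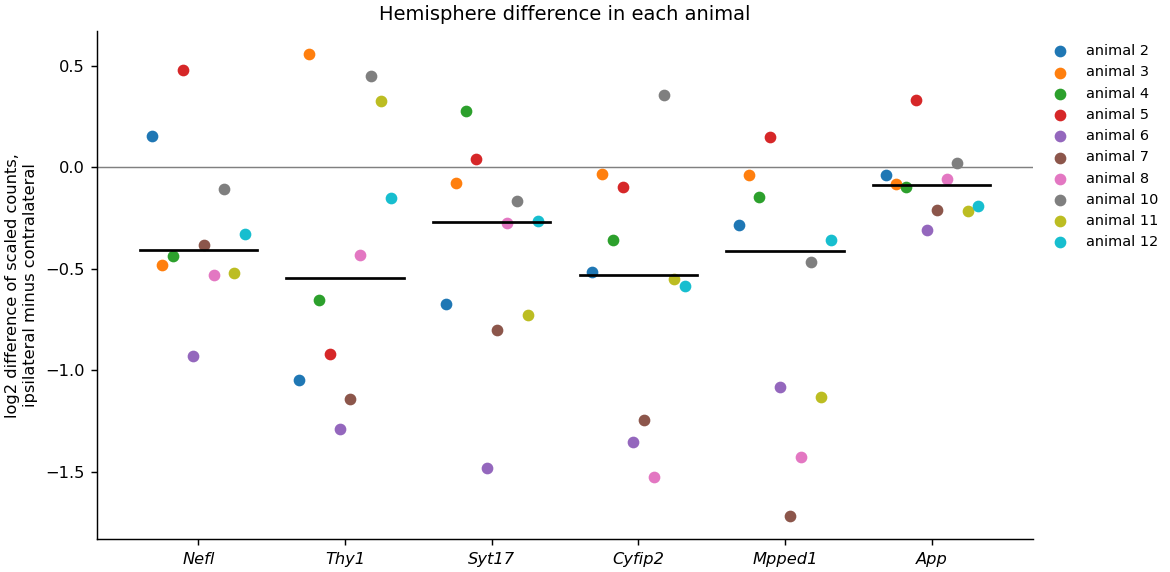
Log2 difference of scaled counts, ipsilateral minus contralateral, for each transcript, with 1 point for each of the 10 animals and the median as a black line. The points of App stay between -0.31 and 0.33, whereas those of Cyfip2 and Mpped1 reach -1.52 and -1.72.

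Tested markers of microglia and macrophages moved in the opposite direction. Of the 18 listed, 13 were on the panel and 6 were tested, and all 6 were called higher, with a median log2 fold change of 1.68, where 47.2% of all tested genes were called higher. The summed level of the 13 was 306 to 2574 scaled counts ipsilaterally and 251 to 360 contralaterally. None of them was at 0 in every library, but 7 lay under the minimum, among them Itgam (mean raw count 2.10) and Cx3cr1 (3.45). Those 7 were not tested, and a scarce marker can pass the minimum through the injured side alone. The 6 called higher and their median therefore describe the tested markers only, not the whole list. Lgals3 (galectin-3, of activated phagocytes) was scarce ipsilaterally in animals 3, 5 and 10, at 20.5 to 22.7 scaled counts. For the other 7 it was 174 to 818. Cyfip2 stayed at 2780 or more where Lgals3 was scarce, but not every transcript divided this way. Ipsilateral Mpped1 was below all contralateral libraries in animal 10 (167, scarce Lgals3), but not in animal 4 (196, high Lgals3). Nefl of animals 2 and 12, both with high Lgals3, was 603 and 651, within its contralateral range. Of astrocyte markers 1 of 2 on the panel was tested and called higher (Vim), of oligodendrocyte lineage markers 1 of 1 (Cspg4, 0.41 ± 0.13 SE), and of endothelial markers 4 of 6 were tested and all 4 called higher. Against the 47.2% of all tested genes, such short lists say little. The part of other cell types in the counts of the 6 transcripts was not tested.

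The spread between animals was wider ipsilaterally for all 6 transcripts. The SD of Mpped1 was 43.6% of its mean ipsilaterally and 9.70% contralaterally, that of Cyfip2 35.8% ipsilaterally and 14.7% contralaterally, and that of App 12.9% ipsilaterally and 5.40% contralaterally. On the log2 scale the ipsilateral SD was 4.59 times the contralateral one for Mpped1, 2.79 times for Syt17, 2.39 times for Cyfip2, 2.37 times for App, 1.58 times for Nefl and 1.07 times for Thy1. A wider ipsilateral spread was common, found in 83.4% of tested genes with a median ratio of 1.65, against 2.38 for the 6 transcripts. The tested genes were not matched to the 6 transcripts in count level, so nothing is read from this difference.

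The size of the differences depended on how libraries were scaled. The log2 fold change of Mpped1 was -0.57 with Gusb left out of the housekeeping genes, -0.90 with TMM scaling and -1.08 when libraries were centred on their medians. App lay at -0.02, -0.36 and -0.53 under these scalings, and was called lower under TMM scaling, DESeq2's size factors and median centring. Thy1 was called under the same 3, and Nefl under all of 6 scalings but the one without Gusb. Mpped1, Cyfip2 and Syt17 were called lower under all 6. The share of tested genes called lower was 6.22% without Gusb, 24.4% with TMM scaling and 36.8% with median centring. The median of all tested genes shifted with the scaling, from 0.37 without Gusb through 0.02 with TMM to -0.15 with median centring. A factor per library moves all genes nearly alike, so the distance from that median is fixed by construction. Mpped1 lay at -0.94 to -0.92 relative to the median over the 6 scalings, Cyfip2 at -0.89 to -0.88, Thy1 at -0.74, Syt17 at -0.72 to -0.71, Nefl at -0.61 to -0.60 and App at -0.39 to -0.38.

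**Figure D4:**
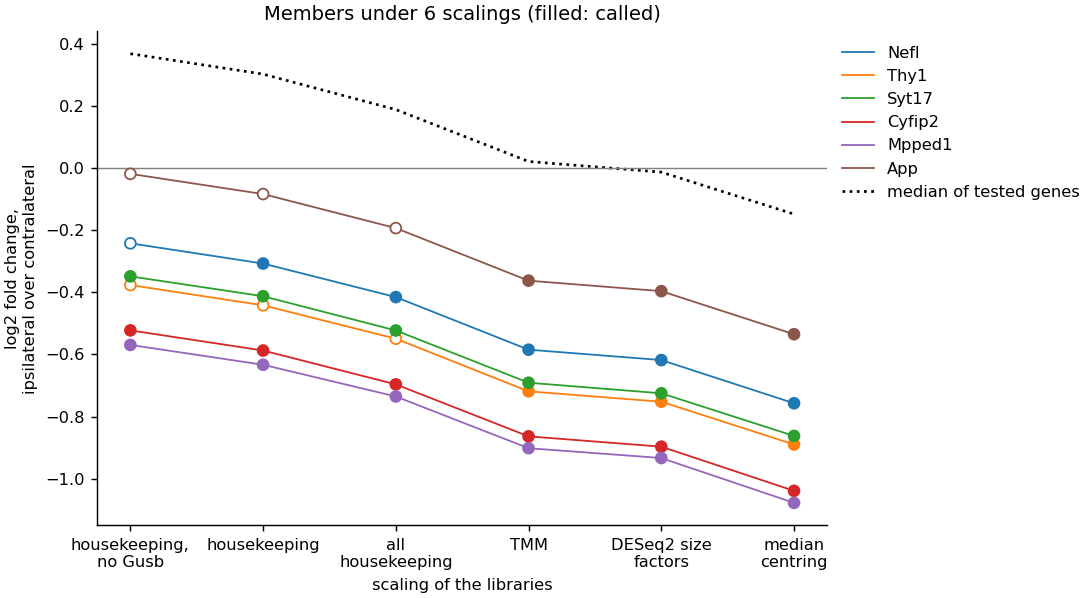
Log2 fold change of ipsilateral over contralateral for the 6 transcripts under 6 scalings of the libraries, with filled points where edgeR called the transcript. The dotted line is the median of the 193 tested genes, which goes from 0.37 to -0.15, and the 6 transcripts move with it and stay below it.

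Ratios between transcripts within a library do not depend on scaling. The log2 ratio of Mpped1 to App, from raw counts, differed by -0.57 ± 0.56 (SD, n = 10 animals) between the ipsilateral and the contralateral library of an animal, and was lower ipsilaterally in 9 of 10. The ratio of Cyfip2 to App differed by -0.51 ± 0.54 and was lower in 8 of 10, as were those of Syt17 to App (-0.33 ± 0.42) and Nefl to App (-0.22 ± 0.26). Cyfip2 and Mpped1 moved in similar measure, their log2 ratio differing by 0.06 ± 0.41, with lower values in 6 animals and higher values in 4. The ratio of Thy1 to App was lower in 6 of 10 animals (-0.36 ± 0.74). The SD between animals exceeded or nearly equalled the mean difference in each of these ratios.

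Whether the transcripts vary together from animal to animal was examined within each hemisphere, over the 15 pairs of the 6. Ipsilateral libraries fall into separate clusters by Lgals3, so correlations were computed within the 7 animals with 174 scaled counts or more. There 14 of 15 pairs had a positive Pearson's r, as did 62.5% of all pairs of tested genes. The median r was 0.65, against 0.19 for all pairs of tested genes. The highest was between Nefl and Cyfip2 (r = 0.89, exact permutation p = 0.0137, adjusted p = 0.196, n = 7; Spearman's rho 0.89, exact permutation p = 0.0123, adjusted p = 0.18), and r was 0.95 without the 2 libraries farthest from the median of Nefl. Syt17 and App followed (r = 0.81, exact permutation p = 0.0262, adjusted p = 0.196, n = 7; Spearman's rho 0.64, exact permutation p = 0.139, adjusted p = 0.375). Without the 2 libraries farthest from the median of Syt17, which leaves 5, the r of Syt17 and App was -0.04 with housekeeping scaling and -0.03 with median centring, but 0.93 with TMM scaling. After adjustment over the 15 pairs, 0 passed in these two-sided tests of r, and 2 had an unadjusted p under 0.05. Under TMM scaling the median r was 0.80 (all pairs -0.01) and 8 pairs had an unadjusted p under 0.05, and under median centring the median r was 0.75 (all pairs 0.08) with 6 such pairs. Again 0 passed after adjustment. The 6 transcripts were picked with their hemisphere values known, and the ipsilateral libraries entered those values. The medians set beside those of all pairs are therefore a description.

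In the 10 contralateral libraries the correlations depended on the scaling. The median r with housekeeping scaling was 0.01 over the 15 pairs, against a median of 0.08 over all pairs of tested genes. Positive were 8 of the 15 pairs and 57.7% of all pairs. The median r was 0.11 with 9 positive pairs under TMM scaling (all pairs 0.01, 51.3% positive). Under median centring it was 0.25 with 12 positive pairs (all pairs 0.09, 58.4% positive). Thy1 and Cyfip2 had the highest r, at 0.64 (permutation p = 0.0425, adjusted p = 0.319, n = 10; Spearman's rho 0.58, permutation p = 0.0902, adjusted p = 0.338), and 0.62 without the 2 libraries farthest from the median of Thy1. Thy1 and App had the lowest, at -0.63 (permutation p = 0.0368, adjusted p = 0.319, n = 10; Spearman's rho -0.83, permutation p = 0.00489, adjusted p = 0.0733), and -0.48 without those libraries. This pair had r = -0.42 and rho -0.44 under TMM scaling, and r = -0.15 and rho 0.02 under median centring. Its negative r and rho thus depended on the scaling. Under both of these scalings Nefl and Cyfip2 had the lowest r instead (-0.58 and -0.41). Thy1, in both the highest and the lowest pair with housekeeping scaling, had raw counts from 17 to 172 in these libraries. The highest count of a negative control was 18. Of the 15 pairs 0 passed after adjustment under any of the 3 scalings. With an unadjusted p under 0.05 there were 2 with housekeeping scaling, 0 with TMM scaling and 1 with median centring. Whether ipsilateral and contralateral correlations differ was not tested.

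**Figure D5:**
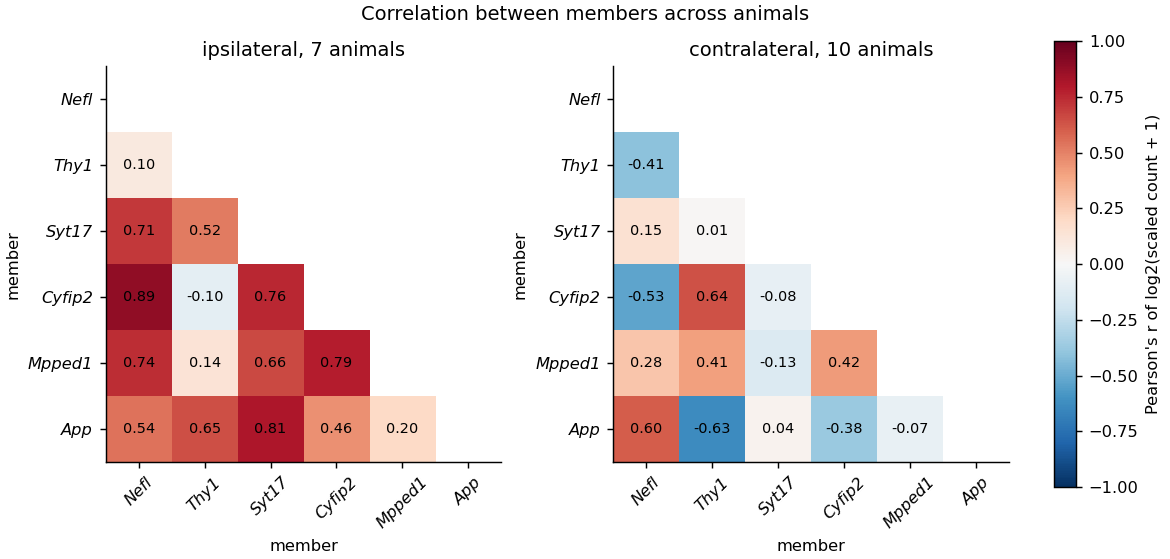
Pearson's r of log2(scaled count + 1) for each pair of the 6 transcripts, in the 7 ipsilateral libraries with 174 or more scaled counts of Lgals3 (left) and in the 10 contralateral libraries (right). Of the ipsilateral pairs 14 of 15 are above 0, where 62.5% of all pairs of tested genes are. Of the contralateral pairs 8 of 15 are above 0 with this housekeeping scaling, where 57.7% of all pairs are. None of the pairs shown passed after adjustment.

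Other genes were ranked by how closely their paired differences followed those of each transcript from animal to animal. The 3 tested genes most like each transcript were found by Pearson's r over the 10 animals, and values are given here within the 7 animals of the larger Lgals3 cluster, as a description. All genes share the housekeeping factor of a library. The 7 animals were among those used to pick the genes, so high values are partly built in. Over the 10 animals the median r of the other tested genes ran from -0.43 for Mpped1 to -0.03 for Nefl. For Cyfip2 the 3 genes were Egr3, an immediate early transcription factor (r = 0.87), the prostaglandin synthase Ptgs2 (0.79) and the kinase Mapk8 (0.79). Egr3 and Ptgs2 were themselves called lower, at -0.57 ± 0.17 and -0.53 ± 0.15 (log2 fold change, SE). For Mpped1 they were Tollip, an adaptor of Toll-like receptor signalling (r = 0.81), the cytokine Mif (0.85) and Lrrn3, a leucine-rich repeat protein of neurons (0.74). For Syt17 they included the kinase Prkce (0.81) and the paraneoplastic antigen Pnma1 (0.78). Those of Nefl included Crebbp, a histone acetyltransferase (0.69), and the phosphatase Dusp4 (0.89), and those of App the deubiquitinase Cyld (0.84) and the transcription factor Atf2 (0.52). Thy1 had weaker likenesses, with the kinase Tbk1 (0.51), the sterol transporter Abcg1 (0.67) and the transcription factor Yy1 (0.37).

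Few other genes listed as neuronal or synaptic were on the panel. The lists are not complete, and Lrrn3, named above, is not on them. Of 42 listed genes of neuronal structure and identity 4 were present, of which only Ncam1, a neural cell adhesion molecule, is not among the 6. Ncam1 was not called, with a log2 fold change of 0.05 ± 0.07 (SE). It averaged 1212 ± 126 on the ipsilateral and 1168 ± 109 on the contralateral side (scaled counts, SD, n = 10 each). Of 57 synaptic genes, Syt17 and Cyfip2 were the 2 present, and Cyfip2 was the 1 present of 26 genes of the WAVE complex and the actin signalling around it. Of 25 genes of the App family, its processing and clearance, 7 were present and 5 tested. Apart from App, 3 of these were called higher and 0 lower, a count of 4 genes that says little where 47.2% of all tested genes were called higher. They were Apoe, a lipid carrier that binds amyloid beta (1.02 ± 0.24 SE), the chaperone Clu (0.83 ± 0.18 SE) and the receptor Lrp1, which takes up Apoe (0.21 ± 0.08 SE). Psen2, a catalytic subunit of gamma-secretase, stood at 0.18 ± 0.09 (SE) and was not called. The peptidase Mme (mean raw count 7.80) was among those under the minimum.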

How the data were processed

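The values are the deposited counts of each probe, whole numbers for 750 endogenous genes, 20 genes taken as housekeeping, and 14 control rows. Per the labels' protocols the authors counted RNA on an nCounter Digital Analyzer and handled it in nSolver (version: not given in the sources used here). Normalization is mentioned in the design text, but totals differ 9.29-fold between libraries and controls are not subtracted, so the values were treated as raw counts. The series' second table holds the same counts under another animal number in 20 of 20 columns, with the same hemisphere and the same 10 pairs. Animal numbers follow the matrix headers.

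Library factors (0.289 to 4.27) are geometric means over the 17 housekeeping genes whose counts averaged 20 or more, the minimum for tested genes too. Gusb, at 1.02, and Oaz1, at -0.44, had the highest and the lowest mean paired log2 difference of the 17. edgeR 4.0.16 (R 4.3.3; quasi-likelihood, animal as block, two-sided, Benjamini-Hochberg over 193 genes) compared hemispheres. It was also run on simulated counts without effects of animal or set, so that run says nothing on how those affect the calls. SE is the log2 fold change divided by the square root of F. The pairing rests on the titles. Within an animal, residuals of both libraries had correlations of -0.21 to 0.50, above 0.1 in 5 of 10 animals. Libraries of a group differed by more than sampling noise (chi-square per degree of freedom 2.22 to 146). Each animal was 1 replicate.

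Correlations used permutation tests (scipy 1.17.1), with 100000 resamples or all orders below 10 libraries. The plan had all 10 ipsilateral libraries, and the 7 were used after the clusters were seen. Members and lists were chosen with earlier results of these data known. Named are the 6 transcripts, up to 4 tested genes of each list with the smallest p, the 3 genes most like each, and Lgals3, Cd68 and the housekeeping genes that differed most. Some genes the rule allows are not reported here. Alternatives were other scalings, DESeq2 1.42.0, background subtraction, other minimum counts, no block, and each animal left out.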

Additional observations from a re-analysis of the deposited data

Results flagged for a closer look

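The paired log2 difference of App in animal 5, at 0.332, lay far above those of the other 9 animals, with a gap to the nearest of 0.488 of the whole range. Of the 18 sets of 10 values examined for the 6 transcripts (both hemispheres and the paired difference), 1 was picked out, and chance picks out about 1 in 20, or 0.9 of 18.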

How the results depend on the processing

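Over 20 alternatives, all 6 transcripts kept a negative log2 fold change wherever they were tested (119 values, 0 with a turned sign), 98 values kept their side of the threshold, 14 lost a call and 7 gained one. Cyfip2 and Mpped1 were called under every one of these alternatives. The number of the 6 called lower, 4 as reported, was 2 to 4 when 1 animal was left out, lowest without animal 7 or animal 11, and 0 were called higher. Among all tested genes, 20 were called lower and 91 higher as reported. These counts were 47 and 58 with TMM scaling, 50 and 56 with DESeq2's size factors, and 71 and 40 with median centring. Called lower were 12 genes without Gusb, 13 without the animal as a replicate block, 13 after background subtraction, and 9 of 750 with no minimum count. Leaving out 1 animal gave 9 to 23 lower and 73 to 104 higher. Without the block Nefl lost its call (-0.28), as it did after background subtraction (-0.28), and with no minimum count. At a minimum of 50 Thy1 was not tested. Of the 15 pairs of transcripts, 0 passed in either hemisphere by Pearson's r under TMM scaling, median centring or without the 2 farthest libraries (5 ipsilateral libraries are then left, too few to say much). By Spearman's rho 1 ipsilateral pair passed under TMM scaling. Thy1 is limited by its depth, with raw counts near those of the negative controls.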
